A study of Mus musculus with 7 samples.

Results

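The allelic and total expression of 10 genes of bone mineralization and phosphate handling was examined in mouse tibial growth plates. The genes were chosen by name, as the rows whose Ensembl identifier carries the symbol Alpl, Enpp1, Phospho1, Slc20a1, Slc20a2, Spp1, Ibsp, Dmp1, Mepe or Mgp in GENCODE. All 10 were found among the 43346 genes in the data, and all 10 were among the 21805 genes that were tested, which had a non-zero estimate on 1 or both alleles in each mouse, however small. The 10 genes had total counts of at least 585 in every mouse. The samples were 7 male F1 mice of C57BL/6J (B6) and CAST/EiJ (CAST), aged 21 d, with no treatment. B6 is the common laboratory strain and CAST is an inbred strain derived from wild mice. Proximal and distal tibial growth plates were dissected, and their total RNA, depleted of ribosomal RNA, was sequenced in 1 library per mouse. Reads were aligned to a transcriptome that holds both parental sequences, so each gene has an estimated count for its B6 and for its CAST allele. Allele-specific expression was the question the libraries were made for.

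Mitochondria come from the mother and the single X of a male does too. Mitochondrial counts were 99.98 to 99.99% B6 in the 7 mice, and X-linked counts were 90.2 to 91.6% B6. Strain and parent of origin of an autosomal allele therefore cannot be told apart. The remaining X-linked counts were assigned to CAST, whose X these males would lack. Error in assigning counts to alleles may thus also affect autosomal ratios, and its size there was not tested. Total estimated counts per library were 14098019 (mouse 7) to 37849667 (mouse 5) with a median of 27603769, and the B6 share of autosomal counts was 49.4 to 49.7%. The libraries are labelled as growth plate chondrocytes. All 6 general and 4 hypertrophic chondrocyte markers were above 0 in every mouse, but so were all 7 osteoblast, 5 osteoclast, 4 erythroid, 4 neutrophil, 4 B-lineage, 4 muscle and 4 endothelial markers. The summed osteoblast markers reached 71541 to 130260 CPM (counts scaled to a common library total, summed over the alleles) against 52951 to 99708 CPM for the 6 general chondrocyte markers, so the values describe a tissue that includes bone. Most of the osteoblast sum came from Col1a1 (mean 46544 CPM) and Col1a2 (44710 CPM), while the other osteoblast markers had means of 36.0 (Ifitm5) to 1626 CPM (Bglap). Most of the chondrocyte sum came from Col2a1 (53738 CPM). Fewer cells of a type and less RNA per cell cannot be told apart in such samples.

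Mineral is laid down in the growth plate where hypertrophic cartilage gives way to bone. Inorganic phosphate feeds crystal growth and pyrophosphate blocks it, so the balance between enzymes that make or break pyrophosphate, transporters that carry phosphate, and matrix proteins that seed or restrain crystals sets where tissue hardens. The SIBLING proteins, a family of acidic secreted phosphoproteins that bind calcium and integrins, are encoded side by side in mammals, and Mgp encodes an inhibitor that needs vitamin K.

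The 4 SIBLING genes of the set lie on the plus strand of mouse chromosome 5 (GRCm38/mm10), in the order Dmp1 (chr5:104202613-104214102), Ibsp (chr5:104299171-104311469), Mepe (chr5:104325329-104338611) and Spp1 (chr5:104435118-104441050). They span 238 kb, with 85.1 kb between Dmp1 and Ibsp, 13.9 kb between Ibsp and Mepe and 96.5 kb between Mepe and Spp1. The other genes are on different chromosomes. Alpl is at chr4:137741733-137796384, Enpp1 at chr10:24637914-24712159 and Mgp at chr6:136872435-136875823, all on the minus strand. Phospho1 is at chr11:95824499-95832140, Slc20a1 at chr2:129198764-129211616 and Slc20a2 at chr8:22476788-22569612, on the plus strand.

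The sequence before the start of each SIBLING gene is shown as a description of these neighbours, whose allele ratios are compared below. It is that of B6 alone, so it cannot show where the alleles differ. The sequences are the B6 reference from RefSeq (GRCm38.p6), 5′ to 3′, from 250 bases before the RefSeq start up to the first base that GENCODE or RefSeq annotates as transcribed. Capitals mark a RUNX core (TGTGGT, or ACCACA on the other strand) or a TATA box (TATAAA or TTTATA).
Dmp1 (chr5:104202367-104202612, plus strand): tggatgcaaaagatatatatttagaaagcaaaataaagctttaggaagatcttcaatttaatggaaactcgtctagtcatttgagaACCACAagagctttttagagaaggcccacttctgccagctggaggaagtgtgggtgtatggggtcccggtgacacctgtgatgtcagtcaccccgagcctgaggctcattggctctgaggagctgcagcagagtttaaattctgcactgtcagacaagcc
Ibsp (chr5:104299037-104299170, plus strand): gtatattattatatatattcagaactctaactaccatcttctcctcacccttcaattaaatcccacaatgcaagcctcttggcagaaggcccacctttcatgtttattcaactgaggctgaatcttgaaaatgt
Mepe (chr5:104325079-104325328, plus strand): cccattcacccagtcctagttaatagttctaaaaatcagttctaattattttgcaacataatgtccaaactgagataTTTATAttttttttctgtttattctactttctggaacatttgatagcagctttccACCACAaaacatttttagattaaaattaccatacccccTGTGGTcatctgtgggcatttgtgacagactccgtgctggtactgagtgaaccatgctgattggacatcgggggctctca
Spp1 (chr5:104434861-104435110, plus strand): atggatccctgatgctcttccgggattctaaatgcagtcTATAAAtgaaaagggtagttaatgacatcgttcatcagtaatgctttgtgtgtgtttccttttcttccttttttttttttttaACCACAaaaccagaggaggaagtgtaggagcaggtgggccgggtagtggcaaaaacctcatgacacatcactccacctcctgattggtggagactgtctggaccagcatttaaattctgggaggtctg

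A window of 250 bases was found for 8 of the 10 genes, all but Slc20a2 and Mgp. Alpl, Slc20a1, Spp1 and Dmp1 had 2 windows each, of which 1 was used, and the counts below depend on that choice. Positions below are those of the first base of a match, counted back from the RefSeq start, and both strands were searched. No match of one motif overlapped a match of another. The RUNX core, the binding motif of the osteoblast and hypertrophic chondrocyte regulator Runx2 and its relatives, was in 5 of 8 windows and in 14.05% of all 32851 promoter windows. Mepe held it at -118 and at -80, Spp1 at -128 and Dmp1 at -164, while Enpp1 held it at -144 and Slc20a1 at -77. The window of Ibsp held no RUNX core, and its TATA box match at -28 lies in bases that GENCODE counts as transcribed and that are not printed. TATA box matches further upstream were found in Spp1 at -211 and in Mepe at -173, and 12.4% of all windows held such a match. A CCAAT box (CCAAT or ATTGG) was in 6 of the 8 windows, including all 4 of the SIBLING genes, against 33.8% of all windows. A GC box (GGGCGG or CCGCCC) was in the 4 windows of Alpl, Enpp1, Phospho1 and Slc20a1 and in 0 of the 4 SIBLING windows, against 32.7% of all windows. The GC content of the SIBLING windows was 38 to 45.6% and that of the other 4 was 61.2 to 75.6%, where the median over all windows was 52.4%. These matches describe the reference sequence only, and their part in expression was not tested.

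Levels of the 10 genes were compared as CPM per kb of exon, which sets genes of different length on 1 scale. The length used was that of all annotated exons of a gene merged, and the order below depends on it. By mean CPM alone, Alpl (727) was above Spp1 (559), and Enpp1 (74.5) and Slc20a1 (61.9) were above Mepe (36.7). The plot of levels shows them in each mouse. Spp1, osteopontin, was the most abundant at 339 ± 65.1 CPM per kb (SD, n = 7), with a range of 216 to 409. Mgp followed at 285 ± 59.9 CPM per kb. The ranges of Spp1 and Mgp overlapped, and Spp1 was the higher in 6 of 7 mice. Alpl, the tissue-nonspecific alkaline phosphatase that hydrolyses pyrophosphate, was at 180 ± 32.2 CPM per kb, and Ibsp, bone sialoprotein, at 137 ± 18.0 CPM per kb. Dmp1, a matrix phosphoprotein best known from osteocytes, was at 84.7 ± 12.4 CPM per kb, with all values below those of Ibsp. Phospho1, the matrix vesicle phosphatase that frees phosphate from phosphocholine and phosphoethanolamine, was at 46.6 ± 10.1 CPM per kb. Mepe, matrix extracellular phosphoglycoprotein, was the lowest of the SIBLING genes at 21.8 ± 3.70 CPM per kb. The sodium-phosphate cotransporter Slc20a1 was at 11.1 ± 0.947 CPM per kb. Enpp1, which makes pyrophosphate from nucleotide triphosphates, was at 7.27 ± 0.463 CPM per kb, and the second cotransporter, Slc20a2, at 6.89 ± 0.786 CPM per kb. From Ibsp down to Enpp1 the ranges of neighbours in this order did not overlap, whereas those of Mgp and Alpl, of Alpl and Ibsp, and of Enpp1 and Slc20a2 did.

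**Figure D1:**
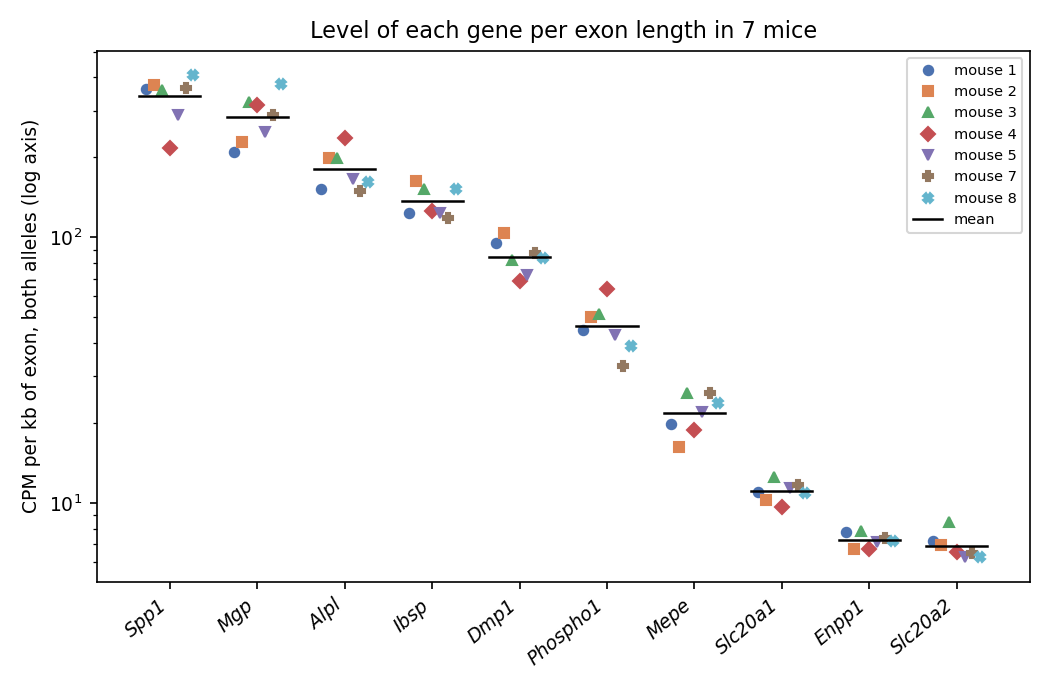
Total level of each gene in each of the 7 mice, as CPM per kb of exon on a log axis, with both alleles summed. Points are mice and black lines are means, from 339 for Spp1 to 6.89 for Slc20a2; mouse 4 is the lowest point for Spp1 and Dmp1 and the highest for Alpl and Phospho1.

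The genes differed in how much they varied between mice, expressed as the coefficient of variation (CV) of CPM. Among the 3516 genes with a mean total count of at least 965, that of Mepe, the lowest of the set, the median CV was 11.1% and the quartiles were 8.15 and 15.4%. Phospho1 (21.6%), Mgp (21.0%), Spp1 (19.2%), Alpl (17.9%) and Mepe (16.9%) lay above the upper quartile. Enpp1 lay below the lower quartile at 6.37%, and Slc20a1 was at 8.53%, Slc20a2 at 11.4%, Ibsp at 13.2% and Dmp1 at 14.7%.

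Mouse 4 stood apart in several of these genes. Its Spp1 level was 356 CPM, where the other mice were at 474 to 674 CPM, and its Dmp1 level of 189 CPM was also the lowest of the 7. Its Alpl level, 954 CPM, and its Phospho1 level, 130 CPM, were the highest, against 601 to 805 CPM and 66.7 to 105 CPM in the others. The same library had the highest summed chondrocyte markers, 99708 CPM against 52951 to 76010 CPM, and the highest summed hypertrophic markers, 5478 CPM against 2999 to 4604 CPM. Its summed osteoblast markers, 97549 CPM, were the median of the 7. Collagen genes (Col2a1, Col10a1, and Col1a1 with Col1a2) make up most of these sums. The part of tissue makeup in the levels of mouse 4 was not tested.

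Over the 7 mice, 45 pairs of the genes were compared for correlation of log2 CPM (0.5 added). None of the 45 had an adjusted p under 0.05 (exact permutation test, two-sided), and 4 had an unadjusted p under 0.05. The strongest pair was Alpl and Phospho1, with Pearson's r = 0.91 (exact permutation p = 0.00397, adjusted p = 0.179) and Spearman's rho = 0.86 (exact permutation p = 0.0238, adjusted p = 0.512). Without mice 4 and 2, the farthest from the median of Alpl, r was 0.78. Slc20a1 went with Enpp1 at r = 0.82 (exact permutation p = 0.0206, adjusted p = 0.35) and rho = 0.82 (exact permutation p = 0.0341, adjusted p = 0.512). It also went with Mepe at r = 0.80 (exact permutation p = 0.0308, adjusted p = 0.35) and rho = 0.86 (exact permutation p = 0.0238, adjusted p = 0.512). Without the 2 farthest mice these became r = 0.92 and r = 0.87. Spp1 and Dmp1 had r = 0.77 (exact permutation p = 0.0312, adjusted p = 0.35) and rho = 0.75 (exact permutation p = 0.0663, adjusted p = 0.596), but r was -0.21 without mice 4 and 5. Those mice were the farthest from the median of Spp1, and leaving such mice out narrows the range of a gene. A lower r without them therefore cannot show what a relation rests on. The lowest r of the 45, between Phospho1 and Spp1, was -0.64 and became -0.03 without mice 4 and 7.

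As a description, the genes most like each of the 10 over the 7 mice were sought among 11753 genes with a mean total of at least 100 counts. These points share libraries and depth, and high correlations are common with 7 mice. Alpl went with the ion cotransporter Slc12a4 (r = 0.99), Matn4 (r = 0.99), which encodes a cartilage matrix protein, and Ngef (r = 0.98). Phospho1 went with Col6a2 (r = 0.98), a chain of collagen VI, with Adgra3 (r = 0.98) and with Ephb2 (r = 0.97). For Enpp1 they were Gzf1 (r = 0.97), Phyh (r = 0.96) and Agpat5 (r = 0.96). For Slc20a1 they were Gnl3 (r = 1.00), Birc2 (r = 0.98) and Mbnl1 (r = 0.98), and for Slc20a2 Cav1 (r = 0.99), Sgcd (r = 0.99) and Mdfic (r = 0.98). Spp1 went with Tspan6 (r = 1.00), Sdhaf4 (r = 0.99) and Btf3 (r = 0.98). The other SIBLING genes had different nearest genes, namely Gnb5 (r = 0.98), Btbd19 (r = 0.97) and Pdgfrl (r = 0.95) for Ibsp and Gpr137b (r = 0.98), Klf11 (r = 0.96) and Serpine2 (r = 0.95) for Dmp1. Those of Mepe were Fut8 (r = 0.98), Maml2 (r = 0.97) and Cast (r = 0.97). Mgp went with R3hdml (r = 0.95) and with the small nucleolar RNAs Gm25776 (r = 0.95) and Snora81 (r = 0.95).

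Expression from the alleles was compared next, and differed for 2 of the 10 genes in the fit without pairing. The ratio in each mouse is given as log2 of the CAST count over the B6 count, 0.5 added to each, so values below 0 mean more B6 expression. Mgp and Mepe were expressed more from the B6 allele in every mouse, by 1.58-fold and 1.51-fold. Calls were made where the FDR, adjusted over all 21805 genes, was under 0.20 in a likelihood-ratio test with edgeR, which treats the allele columns as separate samples. That test called 32.6% of all genes, 15.4% with CAST higher and 17.2% with B6 higher, and 29.9% of the 3516 genes at least as deep as Mepe. These shares include X-linked genes, whereas the 10 genes are autosomal. The 2 calls among the 10 genes, both with B6 higher, were a share near that of all genes. The median of the fitted log2 fold changes was 0.00 over the 10 genes and 0.01 over all genes, and the median size was 0.09 against 0.11 over the 3516 deep genes. The alleles of a mouse come from 1 animal and 1 library, so a fit with a replicate block (mouse) was also made. It called 6 of the 10 genes, where it called 42.7% of all genes, shallow ones included. Its share over the 3516 deep genes alone was not computed. The additional 4 were Enpp1 and Spp1 with CAST higher and Phospho1 and Dmp1 with B6 higher. In 4 of the 10 genes, Mgp, Mepe, Dmp1 and Phospho1, all 7 mice had the same direction, B6 higher, where 38.9% of the 3516 deep genes had 1 direction in all mice. The plot of allele ratios shows each mouse.

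**Figure D2:**
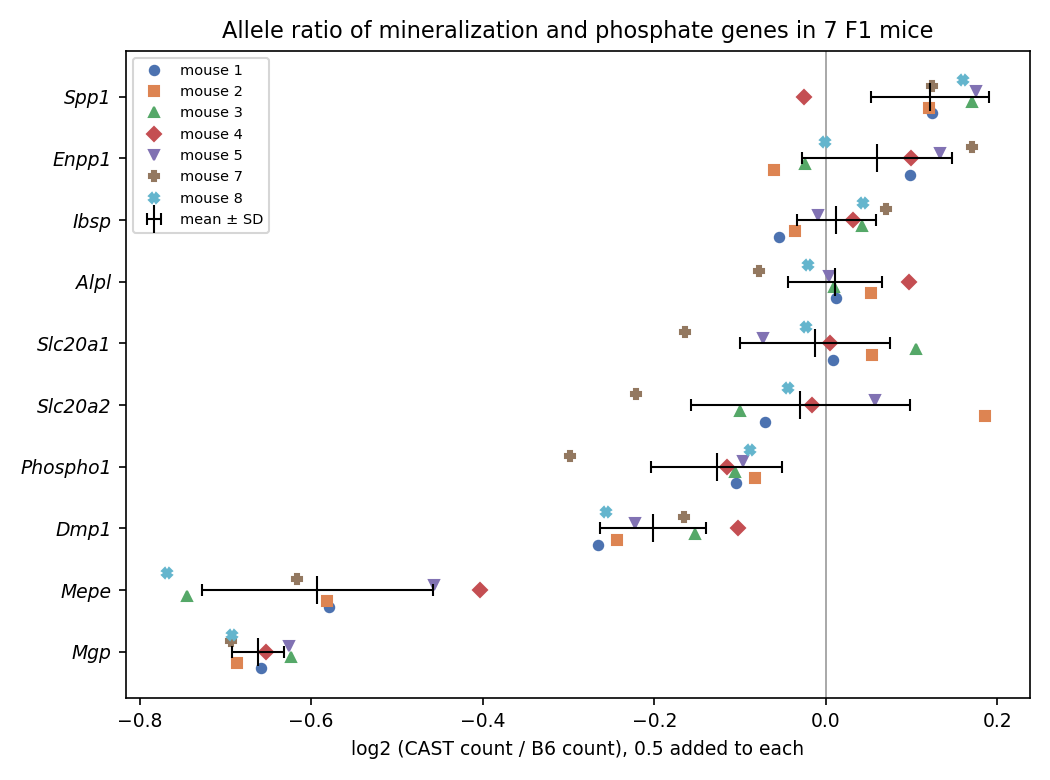
Log2 ratio of the CAST to the B6 estimated count (0.5 added to each) for the 10 genes in 7 mice, sorted by mean, with the mean ± SD in black. Mgp and Mepe lie below -0.40 in every mouse, Dmp1 and Phospho1 lie below 0 in every mouse, and the other genes lie around 0 or, for Spp1, above it in 6 of 7 mice.

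Mgp, the calcification inhibitor of cartilage and arteries, had the most uneven expression of the 10. Its B6 count was 5327 ± 1438 (SD, n = 7) and its CAST count was 3377 ± 952. The log2 ratio was -0.66, -0.69, -0.62, -0.65, -0.63, -0.69 and -0.69 in mice 1, 2, 3, 4, 5, 7 and 8 respectively. The mean was -0.66 ± 0.0301, which is 61.3 ± 0.495% of counts from B6, and the narrowest spread of the 10 genes. Allele counts overlapped between mice, since the deepest library had over 2 times the counts of the shallowest, but B6 was higher within all 7. The fitted log2 fold change was -0.64 with FDR = 0.000113 in edgeR, and FDR was 6.59e-08 with the replicate block and the quasi-likelihood test. The SD over mice was 0.926 times the SD that counting alone would give at the median depth, if each count were 1 independent read. Between libraries the level of Mgp ranged from 249 CPM in mouse 1 to 450 CPM in mouse 8, while the B6 share stayed between 60.6 and 61.8%.

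Mepe, whose protein carries a peptide that restrains mineralization, was the shallowest of the genes, with total counts of 591 to 1455 and a median of 925. Its B6 count was 581 ± 195 and its CAST count was 384 ± 132. The log2 ratio was -0.58, -0.58, -0.75, -0.40, -0.46, -0.62 and -0.77 in mice 1, 2, 3, 4, 5, 7 and 8 respectively. All 7 mice had more B6, and the mean was -0.59 ± 0.135, a B6 share of 60.1 ± 2.24%. The fitted log2 fold change was -0.58 with FDR = 4.84e-05 in edgeR. It was -0.62 to -0.55 when 1 mouse was left out at a time. The exact sign-flip permutation test over mice gave p = 0.0156 (two-sided) for Mepe and for Mgp, the smallest that 7 mice allow.

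Dmp1 was the third gene with B6 higher in all mice, by 1.15-fold. Its B6 count was 3353 ± 1218 and its CAST count was 2890 ± 977, and the log2 ratio was -0.27 at the lowest (mouse 1), -0.22 at the median and -0.10 at the highest (mouse 4). The mean was -0.20 ± 0.0618 with p = 0.0156 (exact sign-flip permutation test, two-sided). In edgeR without pairing, FDR was 0.288 and Dmp1 was not called. It was called with the replicate block, with FDR = 4.37e-15 in the likelihood-ratio test and FDR = 0.000945 in the quasi-likelihood test.

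Spp1 went the other way. Its CAST count was 7782 ± 2752 and its B6 count was 7082 ± 2379, and the log2 ratio was 0.12, 0.12, 0.17, -0.03, 0.18, 0.12 and 0.16 in mice 1, 2, 3, 4, 5, 7 and 8 respectively. CAST was higher in 6 of 7 mice, and the exception was mouse 4, the library with the lowest Spp1 level. The mean was 0.12 ± 0.0689, a difference of 1.09-fold, with p = 0.0312 (exact sign-flip permutation test, two-sided). Without mouse 4 the mean was 0.15 with p = 0.0312 (exact permutation), and without any other single mouse it was 0.11 to 0.12 with p = 0.0625 (exact permutation). With 6 mice this test cannot give p under 0.0625 unless all have 1 direction. FDR was 0.584 without pairing and 2.41e-08 with the replicate block (0.0048 in the quasi-likelihood test), in edgeR.

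Ibsp, whose product binds hydroxyapatite and can seed crystals in vitro, showed the smallest difference of the SIBLING genes. Its counts were 3780 ± 1218 from CAST and 3771 ± 1272 from B6. The log2 ratio ranged from -0.05 in mouse 1 to 0.07 in mouse 7 with a median of 0.03. The mean was 0.01 ± 0.0461 and p was 0.5 (exact sign-flip permutation test, two-sided). FDR was 0.974 without pairing and 0.252 with the replicate block in edgeR.

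**Figure D3:**
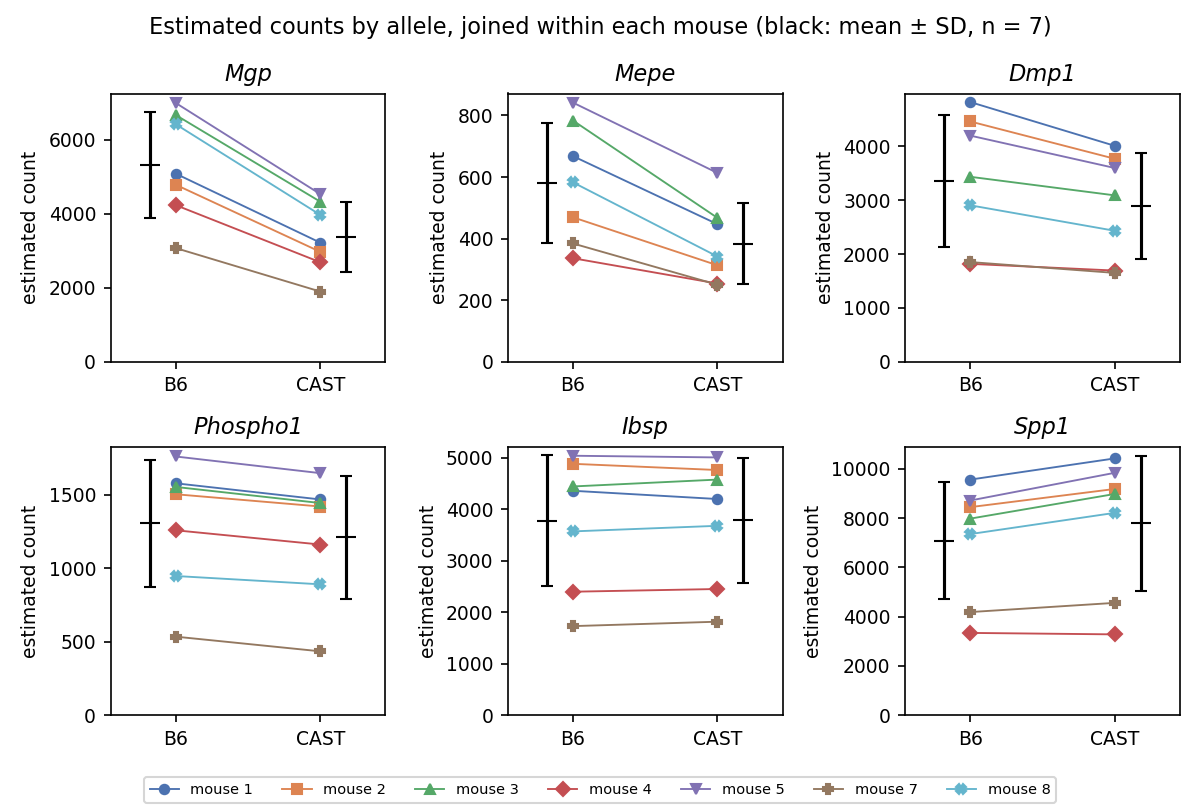
Estimated counts of the B6 and CAST alleles of 6 genes, joined by a line for each of the 7 mice, with means ± SD in black beside them and axes from 0. Every line slopes down from B6 to CAST for Mgp, Mepe, Dmp1 and Phospho1, lines for Ibsp slope both ways, and 6 of 7 slope up to CAST for Spp1.

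The allele ratios of the 4 neighbouring SIBLING genes were compared with each other within mice, in 6 pairs. Mepe differed from each of the other SIBLING genes in all 7 mice. Its log2 ratio was lower than that of Spp1 by 0.71 ± 0.186 (Mepe minus Spp1, -0.71), while Ibsp minus Mepe was 0.61 ± 0.156 and Dmp1 minus Mepe was 0.39 ± 0.129. Dmp1 minus Ibsp was -0.21 ± 0.0494 and Dmp1 minus Spp1 was -0.32 ± 0.117, both in all 7 mice. For these 5 pairs p was 0.0156, and 0.0188 when adjusted over the 6 pairs (exact sign-flip permutation test, two-sided). Ibsp minus Spp1 was -0.11 ± 0.0855, negative in 6 of 7 mice, with p = 0.0469 (exact permutation) before and after adjustment. Without mouse 4 it was -0.14 with p = 0.0312 (exact permutation), the smallest that 6 mice allow. Without any other single mouse p was 0.0625 to 0.0938 (exact permutation). Ibsp and Mepe, which are 13.9 kb apart and are the closest pair, thus had ratios of 0.01 and -0.59.

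**Figure D4:**
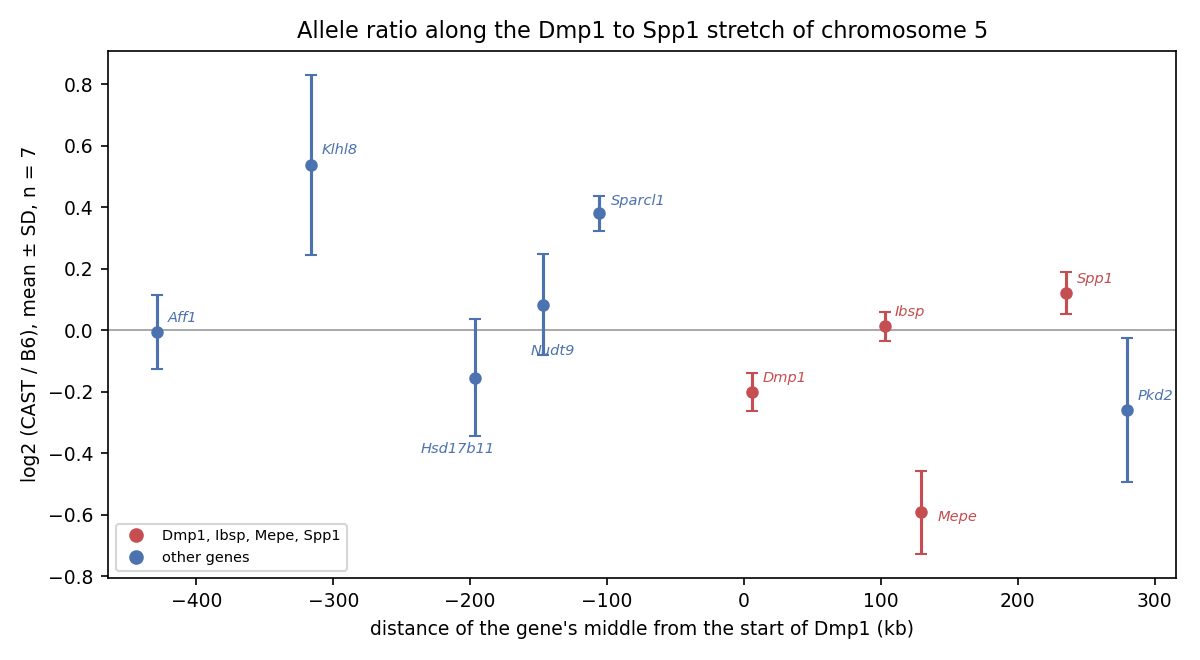
Mean allele ratio (log2 CAST over B6) ± SD in 7 mice for the 10 genes near Dmp1 to Spp1 that had at least 100 counts in every mouse and alleles that were told apart, against the distance of each gene's middle from the start of Dmp1 in kb. The SIBLING genes are in red, from -0.59 for Mepe to 0.12 for Spp1, and the other genes in blue.

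From 500 kb before Dmp1 to 500 kb after Spp1, 29 genes are annotated and 25 of them are not of the set. Of these, 12 were tested and 5 were called in edgeR, 2 with CAST higher and 3 with B6 higher. Dspp, the fifth SIBLING gene and a gene of dentin, lies in the stretch and had 0 counts in every mouse. Sparcl1, which encodes a matrix protein related to osteonectin, was higher from CAST in all 7 mice, with counts of 847 against 649, a fitted log2 fold change of 0.40 and FDR = 0.0043. Klhl8 was higher from CAST as well, with counts of 157 against 109, log2 fold change 0.55 and FDR = 0.000369. Pkd2, which encodes polycystin 2 and follows Spp1, was higher from B6 in all 7 mice, with counts of 910 against 781, log2 fold change -0.23 and FDR = 0.104. Abcg3, on few counts of 36.1 against 8.66, had log2 fold change -2.15 and FDR = 1.86e-06. The antisense gene Gm26703 had 5.48 against 2.67 counts, log2 fold change -1.01 and FDR = 0.117. Not called were Aff1 (log2 fold change 0.02), Hsd17b11 (-0.13), Nudt9 (0.10), BC005561 (-0.34) and D930016D06Rik (-0.01). Zfp951 had equal counts for its alleles in every mouse and Gm8258 had estimates close to 0, so neither was measured by allele. With the replicate block 8 of the 12 were called in the likelihood-ratio test, but 4 (Klhl8, Sparcl1, Pkd2 and Abcg3) in the quasi-likelihood test. Over all genes the likelihood-ratio test called 32.6% without pairing and 42.7% with the block. The share over all genes in the quasi-likelihood test was not computed, so its 4 calls have no background beside them. Totals of Sparcl1, Pkd2 and Gm26703 were not whole numbers in 5, 7 and 5 mice, which can happen where reads are divided between genes.

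Of the enzymes, Phospho1 leaned to B6 and the others were near balance. The counts of Phospho1 were 1305 ± 429 from B6 and 1209 ± 421 from CAST. Its log2 ratio was -0.10, -0.08, -0.11, -0.12, -0.10, -0.30 and -0.09 in mice 1, 2, 3, 4, 5, 7 and 8 respectively. Mouse 7, the shallowest library, was far below the others. The mean was -0.13 ± 0.0761, or -0.10 ± 0.0122 without mouse 7, and p was 0.0156 (exact sign-flip permutation test, two-sided) in all 7 mice. FDR was 0.774 without pairing, 0.000515 with the replicate block and 0.0268 with the block and the quasi-likelihood test, in edgeR. Totals of Phospho1 reads were not whole numbers in any of the 7 mice, and whether reads were shared with another gene was not tested.

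Alpl was the deepest of the 10, with counts of 9636 ± 3006 from CAST and 9512 ± 2885 from B6. The mean log2 ratio was 0.01 ± 0.0549, with mouse 7 lowest at -0.08 and mouse 4 highest at 0.10. The B6 share was 49.8 ± 0.952%. The direction was mixed, with CAST higher in 5 of 7 mice, and p was 0.609 (exact sign-flip permutation test, two-sided). FDR was 0.972 without pairing and 0.251 with the replicate block in edgeR.

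Enpp1, the opposing enzyme in pyrophosphate metabolism, had counts of 1013 ± 347 from CAST and 975 ± 326 from B6. Its mean log2 ratio was 0.06 ± 0.0876, from -0.06 in mouse 2 to 0.17 in mouse 7, and CAST was higher in 4 of 7 mice. The exact sign-flip permutation test gave p = 0.125 (two-sided). FDR was 0.62 without pairing, 0.107 with the replicate block and 0.155 with the block and the quasi-likelihood test in edgeR. Its totals were not whole numbers in 3 mice.

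The phosphate transporters showed no difference beyond the spread between mice. Slc20a1 had counts of 825 ± 290 from CAST and 828 ± 286 from B6, with log2 ratios from -0.16 in mouse 7 to 0.10 in mouse 3 and a mean of -0.01 ± 0.0874 (p = 0.734, exact sign-flip permutation test, two-sided). Slc20a2 had counts of 570 ± 203 from CAST and 576 ± 196 from B6, with log2 ratios from -0.22 in mouse 7 to 0.19 in mouse 2 and a mean of -0.03 ± 0.128 (p = 0.547, exact sign-flip permutation test, two-sided). With and without the replicate block, FDR was 0.865 and 1 for Slc20a1 and 1 in both fits for Slc20a2 in edgeR. The sign of these near-0 values changed with the scaling or with a mouse left out. Totals of Slc20a1 were not whole numbers in any of the 7 mice and those of Slc20a2 in 1 mouse.

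The spread of the ratios was also set against depth. The SD of the log2 ratio over mice was under 1.5 times its counting SD in 6 of the 10 genes, and was highest relative to it in Spp1, at 3.10 times, and in Alpl, at 2.73 times. Mouse 7 held the lowest or highest ratio in 7 of the 10 genes and mouse 4 in 4 of them, whereas no other mouse did so in more than 3. Mice 7 and 4 had the lowest library totals, 14098019 and 21020343, and fewer counts give a larger counting SD. The part of depth in these extremes was not tested. All 7 library totals were above the average number of read pairs that the labels give, so 1 count need not be 1 read. Where 1 read gives several counts, counting SDs are too low. Where reads are divided between alleles, the spread can fall below them. The SD of Phospho1 without mouse 7, 0.0122, was under its median counting SD of 0.0534, and the reason was not tested.

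Other genes of the same processes were taken from a list of 26 symbols in 4 groups. A row was found for 25, of which 21 were tested and 12 were called in edgeR, 5 with CAST higher and 7 with B6 higher. Ankh had no row under that symbol, the same gene being listed as Ank, and Slc34a2, Slc34a3, Fgf23 and Dspp were not tested. Without Phex, which is X-linked and had 1865 B6 counts against 1.87 CAST counts, log2 fold change -9.94, 11 of 20 were called. With the replicate block 15 were called, or 14 of 20 without Phex, and Slc34a1 was not among them. The share called over all genes, X-linked ones included, was 32.6% without pairing and 42.7% with the block. The share over autosomal genes alone was not computed.

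In the pyrophosphate group 4 of 7 tested genes were called. Ppa1, a soluble pyrophosphatase, was higher from B6 in all 7 mice with 4723 against 2365 counts, log2 fold change -0.99 and FDR = 8.08e-15. Enpp3, a relative of Enpp1, had 50.9 B6 and 31.5 CAST counts with log2 fold change -0.68 and FDR = 0.000322, and Ppa2, the mitochondrial pyrophosphatase, had log2 fold change -0.33 and FDR = 0.134. Nt5e, which makes adenosine from AMP, was higher from CAST in all 7 mice with log2 fold change 0.30 and FDR = 0.00683. In the phosphate group 3 of 5 were called, among them Phex, whose X-linked counts were nearly all B6. Vdr, the vitamin D receptor, was higher from CAST with 973 against 625 counts, log2 fold change 0.65, FDR = 1.69e-06 and a mean log2 ratio of 0.63 ± 0.032. Slc34a1, on 2 to 3 counts per mouse, had log2 fold change 1.46 and FDR = 0.158. It was not called with the replicate block (FDR = 0.24 in edgeR), in the quasi-likelihood test or in DESeq2, and did not pass a filter of 10 counts in every mouse. In the matrix vesicle group 3 of 4 were called, the calcium-binding annexins Anxa6 with CAST higher (log2 fold change 0.28, FDR = 0.00826) and Anxa2 and Anxa5 with B6 higher. In the group of matrix modifiers and proteins 2 of 5 were called, 1 in each direction.

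**Figure D5:**
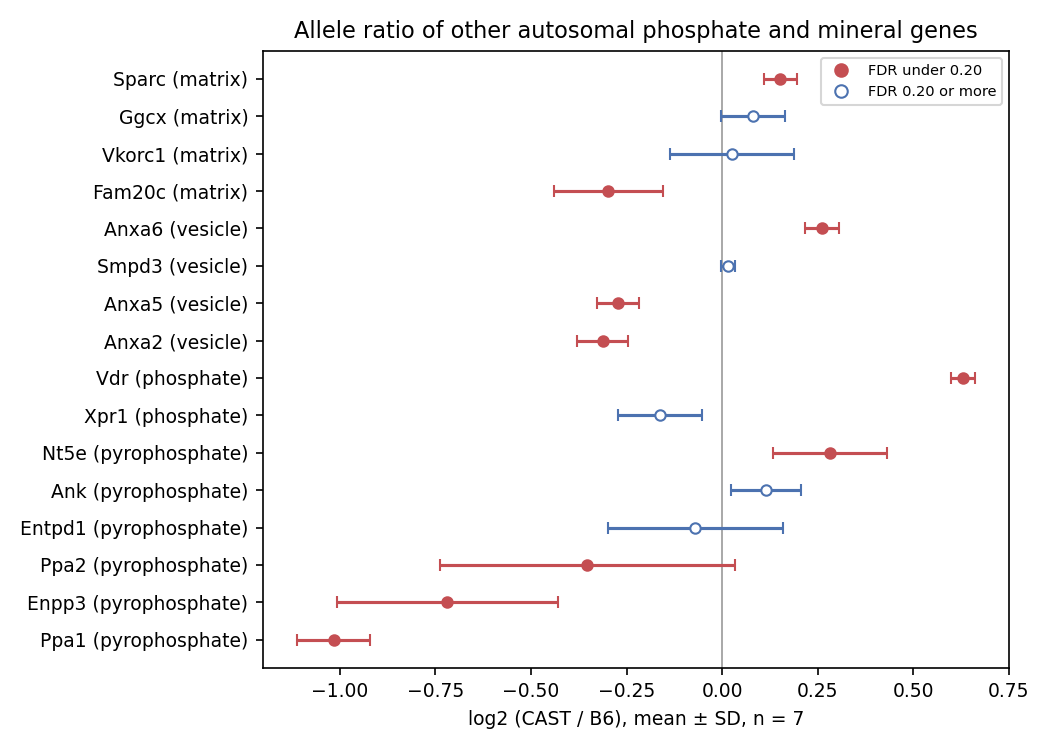
Mean allele ratio (log2 CAST over B6) ± SD in 7 mice for the 16 autosomal genes of the phosphate and mineral list with at least 10 counts in every mouse, by group. Filled points were called at an FDR under 0.20 and open points were not; Ppa1 is lowest at -1.02 and Vdr highest at 0.63.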

How the data were processed

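Growth plates of 7 male B6 and CAST F1 mice were 1 group, numbered as in the labels (1, 2, 3, 4, 5, 7 and 8). The authors aligned reads with Bowtie to a joint B6 (mm10) and CAST transcriptome, allowing 3 mismatches, and used EMASE to estimate the deposited counts of each gene's alleles. The estimated counts were deposited without normalization and can be fractional, since reads that fit several genes or both alleles are divided. Divided reads can draw an allele ratio toward 0 or toward another gene.

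Gene names, coordinates and exon lengths came from GENCODE release 21 (GRCm38), which named 42462 of 43346 identifiers, and promoter windows from RefSeq. The 10 genes and all other lists were chosen with earlier results of these data known. Tested genes had an estimate above 0 on 1 or both alleles in each mouse, and 1785 of them had an estimate under 1e-06 in some mouse. In R 4.3.3, the CAST and B6 columns of rounded counts were compared by edgeR 4.0.16 (with limma 3.58.1), by way of TMM, estimateDisp, glmFit and glmLRT, with Benjamini-Hochberg adjustment over all tested genes. Log2 ratios within a mouse (0.5 added) were tested with an exact sign-flip permutation test over mice, and CPM used TMM-scaled totals. The same-numbered allele columns are paired because they come from 1 animal, and their deviations correlated by 0.184 on average within a mouse (lowest 0.047) and by -0.031 between mice (highest 0.239), over 15111 genes. Replicates were separate animals, and the 21 pairs of libraries differed beyond sampling noise. Alternatives were the quasi-likelihood test, DESeq2 1.42.0, a replicate block, other scalings, filters and pseudocounts, an FDR under 0.05 and leaving out each mouse. Of other genes, those named were the called list genes with the 4 largest log2 fold changes in each direction, those not found or not tested, the tested neighbours on chromosome 5 and the 3 most similar genes. Anxa2 and Anxa5 were named after their values were seen. Python (numpy 2.4.6, pandas 2.3.3, scipy 1.17.1, matplotlib 3.10.9) was used for the remainder. Strand use in counting was not given in the sources used here.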

Additional observations from a re-analysis of the deposited data

Results flagged for a closer look

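In 2 of 20 sets of 7 values, the log2 allele ratio and the level of each of the 10 genes, 1 mouse lay far from the others by Dixon's test, where chance gives about 1. For Phospho1 the log2 ratio of mouse 7 was -0.30, where the other 6 mice were at -0.12 to -0.08. For Spp1 the log2 ratio of mouse 4 was -0.026, where the others were at 0.12 to 0.18.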

How the results depend on the processing

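Mepe and Mgp were called in every alternative that was run, and the direction of the fitted log2 fold change of Alpl, Enpp1, Phospho1, Spp1, Ibsp, Dmp1, Mepe and Mgp did not change in any. The replicate block raised the count among the 10 genes from 2 to 6, in both the likelihood-ratio and the quasi-likelihood test. Over all genes the likelihood-ratio test called 32.6% without the block and 42.7% with the block. The share of all genes called by the quasi-likelihood test was not computed. The tested neighbours on chromosome 5 went from 5 to 8 in the likelihood-ratio test with the block, but were 4 in the quasi-likelihood test with or without it. An FDR under 0.05 left 3 neighbours, and the share of all genes under that threshold was not computed. The log2 fold change of Slc20a1, 0.01, became -0.012 with 1 library size per mouse and -0.0033 with autosomal genes only, and was -0.017 to 0.034 with a mouse left out. That of Slc20a2, -0.01, was -0.050 to 0.018 with a mouse left out. Neither was called, and the cause was not tested. With a mouse left out, 4 to 5 of the 10 genes had an unadjusted exact sign-flip permutation p under 0.05 (5 with all mice). Of the 6 SIBLING pairs, 5 to 6 differed. The loss was Spp1, and its pair with Ibsp, unless the mouse left out was mouse 4. The smallest p of this test with 6 mice is 0.0312, and it needs 1 direction in all 6. For Spp1 and this pair, p therefore could not be under 0.05 while mouse 4 was kept. The share of all genes with a sign-flip p under 0.05 was not computed, so these counts have no background beside them. The list genes called with a mouse left out were 9 to 12, with the X-linked Phex always among them. A filter at 1e-06, chosen after seeing the data, changed no call among the 10 genes. Library totals without Rn7s1, Rn7s2, Rn7sk and mitochondrial genes, which held 16.3 to 24.4% of counts, moved CPM of all 10 genes upward, as for Alpl from 727 to 913. Mepe and Slc20a2 had the fewest counts of the 10 genes, and what depth takes from their calls was not tested.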
